A study of Mus musculus with 12 samples.

Results

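Zinc transporters and metallothioneins were described in mouse liver after 5 days of bezafibrate. The 9 genes were Slc39a5, Slc39a4, Slc39a8, Slc39a14, Slc30a1, Slc30a7, Slc30a10, Mt1 and Mt2, and they were read from every probe set to which the platform annotation gives one of these symbols, 17 of 45101 on the array. The genes were chosen on measured values of these arrays: Slc39a5 was picked because it was higher with the drug and lower in both mutants, so its values are given as a description with no test. All 17 probe sets passed the filter on low values, and the 9 genes were among 13598 genes tested.

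Livers of 12 male mice aged 6 to 12 weeks, 3 per group, were collected at Zeitgeber time 14 (early in the dark phase of a 12 h light and 12 h dark cycle) and Affymetrix arrays were run from 250 ng of total RNA for each. Untreated wild-type mice of the Jcl:ICR strain ate normal chow. Wild-type mice of that strain, Clk/Clk mice on a Jcl:ICR background, and PPARα-null mice ate the same chow with 0.5% w/w bezafibrate, a fibrate that activates PPARα. The PPARα-null line came from a cross of the 129S4SvJae-PPARalphatm1Gonz/J strain with Jcl:ICR, so its genetic background differs from that of the other groups. No untreated mutants were measured, so a genotype effect present without the drug and an altered drug response cannot be told apart. The treated wild-type arrays serve in 3 of the 6 comparisons, which are therefore not independent.

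Zinc enters the cytosol through the ZIP family (Slc39 genes) and leaves it, to the outside or into organelles, through the ZnT family (Slc30 genes). Metallothioneins are small cysteine-rich proteins that bind zinc and copper in the cytosol. When free zinc rises, the zinc-sensing factor MTF1 binds metal response elements in the promoters of Mt1, Mt2 and Slc30a1, and liver metallothionein is also known to respond to glucocorticoids and to interleukin-6. PPARα is the nuclear receptor that fibrates activate in hepatocytes, and the Clk allele encodes a CLOCK protein that pairs with BMAL1 but activates transcription poorly.

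The promoters of the metallothioneins, of the exporter Slc30a1 and of Slc39a5 are shown because the zinc-responsive genes had lower means on the drug and Slc39a5 a higher one. RefSeq windows from 250 bases before to 50 bases after each annotated start (assembly GRCm38.p6) were found for 7 of the 9 genes, 9 windows in all. They are written 5′ to 3′ on the gene's strand, in lower case, and capitals mark each match, on either strand, to the core of the metal response element (TGCACNC or TGCGCNC).
Mt1, chr8:94178839-94179138, plus strand: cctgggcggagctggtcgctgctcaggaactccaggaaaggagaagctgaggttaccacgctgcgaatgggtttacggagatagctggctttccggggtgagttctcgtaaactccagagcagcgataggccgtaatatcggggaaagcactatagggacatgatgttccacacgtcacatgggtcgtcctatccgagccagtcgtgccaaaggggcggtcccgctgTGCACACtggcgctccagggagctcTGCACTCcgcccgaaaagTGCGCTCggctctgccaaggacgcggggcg
Mt2, chr8:94172368-94172667, plus strand: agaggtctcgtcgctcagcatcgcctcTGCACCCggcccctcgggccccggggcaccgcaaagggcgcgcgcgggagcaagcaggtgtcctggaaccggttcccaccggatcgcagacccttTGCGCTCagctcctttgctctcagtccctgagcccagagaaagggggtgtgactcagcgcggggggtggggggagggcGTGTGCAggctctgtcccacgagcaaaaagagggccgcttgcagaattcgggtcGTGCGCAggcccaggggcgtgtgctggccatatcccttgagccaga
Slc30a1, chr1:191906531-191906830, plus strand: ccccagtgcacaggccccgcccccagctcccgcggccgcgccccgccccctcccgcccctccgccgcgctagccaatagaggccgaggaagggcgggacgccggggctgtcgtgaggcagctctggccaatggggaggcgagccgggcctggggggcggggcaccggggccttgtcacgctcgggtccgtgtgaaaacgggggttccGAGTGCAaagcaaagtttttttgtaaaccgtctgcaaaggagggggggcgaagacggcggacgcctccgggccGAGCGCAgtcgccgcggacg
Slc39a5, first window, chr10:128400417-128400716, minus strand: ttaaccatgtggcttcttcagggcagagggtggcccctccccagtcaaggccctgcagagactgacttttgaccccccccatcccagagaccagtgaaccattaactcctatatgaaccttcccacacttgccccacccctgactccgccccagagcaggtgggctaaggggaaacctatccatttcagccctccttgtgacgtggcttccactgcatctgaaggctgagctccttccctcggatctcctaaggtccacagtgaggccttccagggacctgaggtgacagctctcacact
Slc39a5, second window, chr10:128401175-128401474, minus strand: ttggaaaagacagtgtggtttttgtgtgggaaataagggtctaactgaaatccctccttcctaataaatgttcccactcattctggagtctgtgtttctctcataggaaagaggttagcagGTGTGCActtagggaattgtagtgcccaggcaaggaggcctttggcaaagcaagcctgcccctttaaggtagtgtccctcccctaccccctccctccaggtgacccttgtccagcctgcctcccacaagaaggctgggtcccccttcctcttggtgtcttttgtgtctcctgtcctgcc

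Mt2 held 4 core matches and Mt1 held 3. At least 3 matches occurred in 1.97% of all 32851 windows of this length, and at least 4 in 0.518%. Slc30a1 held 2 matches, a number reached by 7.11% of windows. Slc30a10 held 3 matches, of which the pair farthest from the start were one overlapping site read on both strands. One of the Slc39a5 windows held 1 match and the other none, as did the pair of Slc39a8 windows, and Slc30a7 held none, against 25.7% of all windows with at least 1. The direct repeat read by PPARα (AGGTCANAGGTCA), present in 0.0396% of windows, was in none of the 9, nor was its looser form AGGNCANAGGNCA (0.381% of windows). The E-box CACGTG, which CLOCK and BMAL1 bind, occurred in 7.15% of windows and in 1 of the 9, a window of Slc39a8. The antioxidant response core TGACNNNGC was in 12.4% of windows, with 2 matches in the first Slc39a5 window, and 1 each in a window of Slc39a8, Slc30a1 and Mt2. No match overlapped a match of another motif. These are matches of letters, not measured binding. The gene spans of Mt1, Slc30a1 and Slc39a8 begin at 94178883, 191906697 and 135816882, so the annotated starts used for their windows lie inside the spans. On the minus strand, the spans of Slc39a5 and Slc30a7 end at 128401276 and 116007414, and the starts used for their windows also lie inside. Starts without a window were not read.

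The values are log2 expression values, and a level on one probe set was not compared with a level on another. Where a gene has several probe sets, the brightest stands for the gene and the others are given beside it. A gene was called changed at a Benjamini-Hochberg adjusted p under 0.05 over all 13598 genes together with a fold of at least 1.5. In whole liver, fewer cells of a type and less RNA per cell cannot be told apart.

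Arrays correlated at 0.989 to 0.995 within groups and at 0.937 to 0.982 between groups, and the array medians lay between 5.45 and 5.50. The brightest Ppara probe set was lower in PPARα-null than in treated wild-type liver by a difference of -0.90, and the Clock probe set was higher in Clk/Clk by 1.08. The position of these probes relative to the mutations was not known, so they check neither genotype. Of 7 hepatocyte markers 6 were tested. Their summed level of log2 16.6 to 16.9 is carried by Alb, Ttr and Apoa1, with group means of 14.56 to 14.86 near the top of the scale, so it says little about differences between groups. Of the others, Cps1 (-1.24 ± 0.08) and Hnf4a (-0.69 ± 0.09) were called lower with the drug in wild type, while Apob (-0.42 ± 0.07) was not called. That is 2 of 6, where 7.77% of all genes were called lower. Cps1 (1 of 6) was called higher in PPARα-null (0.98 ± 0.08) and Clk/Clk (0.87 ± 0.08) than in treated wild type. Over all genes 5.35% and 2.64% were called higher there. The part of these markers in the results for the zinc genes was not tested. One array stands apart for the metallothioneins: in PPARα-null mouse 3, Mt2 lay 3.21 below the mean of the other PPARα-null mice, the largest such gap of all 13598 genes on that array, and Mt1 lay 1.68 below, the gap ranked 9. That array was otherwise close to its group, at correlations of 0.993 and 0.995, with 39 genes at least 1 log2 unit away from the other mice. For Mt2 and the brighter Mt1 probe set, the drug comparison and each mutant against treated wild type are therefore given with and without it.

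**Figure D1:**
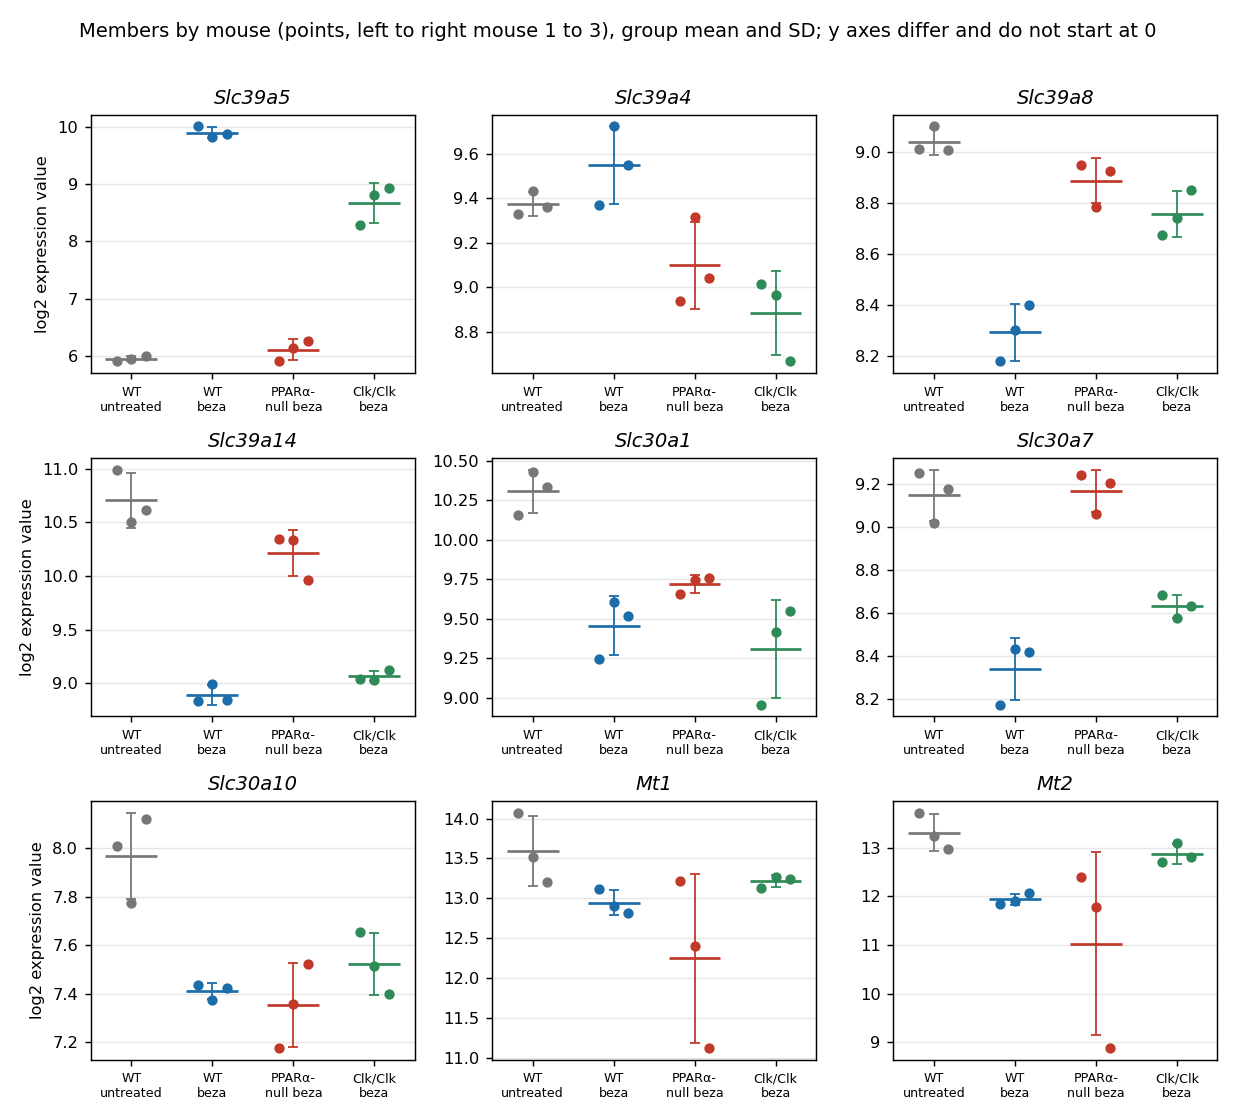
Log2 expression value of the 9 genes (y axis, one scale per gene, not starting at 0) in each of 12 livers, by group (x axis; beza, bezafibrate); points are mice 1 to 3 from left to right, bars the group mean and SD. Slc39a5 lay near 10 in treated wild-type and near 6 in untreated wild-type and PPARα-null liver, whereas Slc39a8, Slc39a14, Slc30a1 and Slc30a7 lay lower in treated than in untreated wild-type liver.

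Slc39a5, the importer ZIP5 of the basolateral membrane of intestinal and pancreatic cells, read 5.90, 5.95 and 5.998 in untreated wild-type livers (probe set 1429523_a_at). With bezafibrate the wild-type values were 10.01, 9.83 and 9.88, a difference of 3.96 ± 0.15 (SE, n = 3 per group) or 15.5-fold. The groups lay far apart, with no mouse between 5.998 and 9.83. In PPARα-null mice on the drug Slc39a5 read 5.91, 6.14 and 6.26, which overlaps the untreated wild-type values. Clk/Clk mice on the drug read 8.28, 8.81 and 8.93, below every treated wild-type mouse and above every untreated or PPARα-null mouse. The order of the levels was thus untreated wild type and treated PPARα-null, which do not differ beyond their spread, then Clk/Clk, then treated wild type. The Clk/Clk mean was 2.35-fold lower than the treated wild-type mean (a difference of -1.23) and 6.62-fold higher than the untreated mean (2.73).

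Because Slc39a5 is best known from the pancreas, markers of exocrine pancreas were read beside it. Of 10 such genes, 8 have a probe set of their own symbol, and Cpa1, Cpb1, Cel and Cela2a were below the filter level, with group means of 3.61 to 4.87. Of the 4 that passed, the pancreatic lipase-related gene Pnliprp1 followed Slc39a5 in part: its group means were 4.25 in untreated wild type, 6.72 in treated wild type, 3.90 in PPARα-null and 6.99 in Clk/Clk. The elastase gene Cela1 went the other way with the drug, from 10.22 to 8.49, and was 8.52 and 8.37 in the mutants. Means of Prss2 went from 5.88 to 6.17 with the drug in wild type (6.11 and 6.26 in the mutants) and those of Ctrb1 from 5.601 to 5.762 (5.76 and 5.77), neither called. The summed level of the 4, mostly that of Cela1, was log2 10.3 to 10.4 in untreated, 9.13 to 9.33 in treated wild-type, 8.76 to 9.12 in PPARα-null and 9.12 to 9.33 in Clk/Clk liver. Their part in the Slc39a5 values was not tested.

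The genes with values most like those of Slc39a5 were taken as those with the smallest root mean square difference over the 12 livers, each gene centred on its own mean. They were Synpo (0.447), Meig1 (0.485), Gal3st1 (0.499), Slc25a4 (0.502) and Qpct (0.504). Over all genes the median of this measure was 1.71, and the root mean square of Slc39a5 about its own mean was 1.70. The drug difference in wild type was 3.50 for Synpo, 3.24 for Meig1, 2.78 for Gal3st1, 2.90 for Slc25a4 and 2.77 for Qpct, each smaller than for Slc39a5. Differences from treated wild type ran from -2.70 (Gal3st1) to -3.31 (Qpct) in PPARα-null, beside -3.80 for Slc39a5. In Clk/Clk they ran from -0.34 (Qpct) to -0.91 (Meig1), beside -1.23.

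Among the 8 other genes, bezafibrate changed 4 in wild-type liver, all of them lower: the importers Slc39a8 and Slc39a14 and the exporters Slc30a1 and Slc30a7. Over all genes 20.6% were called in that comparison. The median difference of the 8 was -0.78, beside 0.0065 for all genes. In treated PPARα-null against treated wild-type liver 3 of the 8 were called, all higher (Slc39a8, Slc39a14 and Slc30a7), where 13.4% of all genes were called, and the medians were 0.10 for the 8 and 0.010 for all genes. In Clk/Clk against wild type on the drug 1 was called, Slc39a4, which was lower, against 9.13% of all genes, with medians of 0.22 and 0.020.

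**Figure D2:**
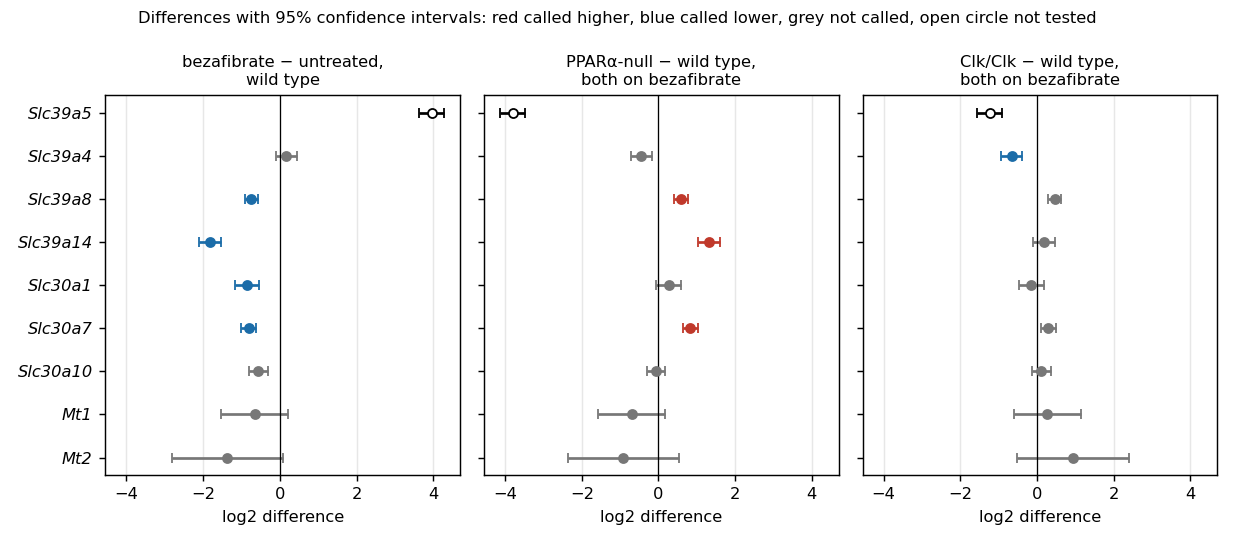
Log2 difference (x axis, same scale in each panel) of the 9 genes (y axis) for bezafibrate against untreated in wild type and for each mutant against wild type on the drug; points are estimates from 3 mice per group, and bars 95% confidence intervals. The 4 genes called lower with the drug are blue in the left panel, the 3 called higher in PPARα-null red in the middle panel, and Slc39a5 is an open circle because it was not tested; the bars of Mt1 and Mt2 are the widest.

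Slc39a14 encodes ZIP14, a hepatocyte importer of zinc, iron and manganese that interleukin-6 induces. It read 10.99, 10.50 and 10.62 in untreated wild-type livers and 8.83, 8.997 and 8.85 in treated ones (probe set 1427035_at). The groups did not overlap, and Slc39a14 fell by 1.81 ± 0.13 (SE, n = 3), or 3.51-fold (adjusted p = 9.2e-07). The other probe sets of the gene showed the same direction, with differences of -0.79, -1.09 and -1.18, each called when probe sets were tested on their own.

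PPARα-null livers on the drug read 10.35, 10.33 and 9.96 for Slc39a14, above every treated wild-type liver and below every untreated one. The difference from treated wild type was 1.32 ± 0.13 (adjusted p = 2.0e-05), and that from untreated wild type -0.49 ± 0.13 (adjusted p = 0.021), under the fold threshold. Clk/Clk livers read 9.04, 9.04 and 9.12, close to treated wild type (0.17 ± 0.13, 95% interval -0.11 to 0.46, adjusted p = 0.36). Clk/Clk was lower than PPARα-null by a tested difference of -1.15 ± 0.13 (adjusted p = 4.1e-05), and lower than untreated wild type by -1.64 ± 0.13 (adjusted p = 1.7e-06). The remaining probe sets gave 0.62, 0.65 and 0.51 for PPARα-null against treated wild type, the last with an adjusted p of 0.051, and none was called for Clk/Clk.

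Slc39a8 encodes ZIP8, a plasma membrane importer of zinc and manganese. Its values were 9.01, 9.10 and 9.01 in untreated wild-type livers and 8.18, 8.30 and 8.40 in treated ones (probe set 1416832_at), a fall of 0.74 ± 0.08 (adjusted p = 1.7e-05). PPARα-null livers read 8.95, 8.79 and 8.93, and Clk/Clk livers 8.68, 8.74 and 8.85. Treated wild type was thus the lowest group and overlapped no other, while the mutants overlapped each other and both lay just under the untreated range. PPARα-null exceeded treated wild type by 0.59 ± 0.08 (adjusted p = 1.8e-04), 1.51-fold. The call was lost, with the adjusted p still at or under 0.0012, at a difference of 0.56 without PPARα-null mouse 1, 0.57 without PPARα-null mouse 3 and 0.53 without treated wild-type mouse 1. It was also lost with the mean of both probe sets (0.45, adjusted p = 0.0062). Clk/Clk exceeded treated wild type by 0.46 ± 0.08 (adjusted p = 0.0019), 1.38-fold and so not called. Its dimmer probe set (1448482_at) read 5.21 to 6.22, with a difference of -0.57 for the drug (adjusted p = 0.0055) and 0.31 and 0.14 for the mutants, none of them called.

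Markers of sinusoidal endothelium were read beside these importers. Of 7 markers tested, Stab2 and Clec4g (2 of 7) were called lower with the drug in wild type, where 7.77% of all genes were, and Stab2 (1 of 7) was called higher in PPARα-null than in treated wild type, where 5.35% were. Stab1 and Kdr had lower means with the drug without a call, while means of Pecam1 (5.86 to 6.24), Cdh5 (7.23 to 7.53) and Lyve1 (8.29 to 8.32) were higher. The summed level of the 7 markers, of which Clec4g is the brightest, was log2 11.8 on all untreated arrays and 11.04 to 11.5 in treated wild type. It was 11.5 to 11.6 in PPARα-null and 11.3 to 11.4 in Clk/Clk. The part of these markers in the results for Slc39a8 and Slc39a14 was not tested.

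Slc39a4 encodes ZIP4, the importer of dietary zinc in the intestine, which is mutated in acrodermatitis enteropathica. It read 9.33, 9.43 and 9.36 in untreated wild type, 9.37, 9.72 and 9.55 in treated wild type, 8.94, 9.32 and 9.04 in PPARα-null and 9.02, 8.97 and 8.67 in Clk/Clk (probe set 1451139_at). The wild-type groups overlapped, and all mutant values lay below all wild-type values, by as little as 9.32 against 9.33. The drug difference in wild type was 0.17 ± 0.12 (adjusted p = 0.27). Slc39a4 was lower in Clk/Clk than in treated wild type by -0.66 ± 0.12, 1.59-fold (adjusted p = 0.0030). The call was lost on fold without Clk/Clk mouse 3 (-0.56, adjusted p = 0.013) or without treated wild-type mouse 2 (-0.58, adjusted p = 0.013). In PPARα-null the difference was -0.45 ± 0.12 (adjusted p = 0.016), 1.37-fold and not called, and the mutants did not differ detectably from each other (-0.22, 95% interval -0.49 to 0.06). Kupffer cell markers were also lower in Clk/Clk, with 3 of 7 called lower than in treated wild type, where 6.49% of all genes were. Their summed level was log2 11.7 to 12.1 against 12.3 to 12.8. In PPARα-null 2 of 7 were called lower than in treated wild type, where 8.09% of all genes were, at a summed level of 12.4 to 12.6. The part of these markers in the Slc39a4 result was not tested.

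Slc30a1 encodes ZnT1, the zinc exporter of the plasma membrane. Its brighter probe set (1436164_at) read 10.16, 10.43 and 10.33 in untreated wild type and 9.25, 9.61 and 9.51 in treated wild type, and fell by 0.85 ± 0.14 (adjusted p = 5.1e-04). PPARα-null livers read 9.66, 9.74 and 9.76 and Clk/Clk livers 8.96, 9.42 and 9.55. Every untreated liver thus lay above all 9 treated livers. Neither mutant was called against treated wild type (0.26 ± 0.14 in PPARα-null, adjusted p = 0.18, and -0.15 ± 0.14 in Clk/Clk, adjusted p = 0.49). The other probe set (1422786_at) did not show the fall: it read 7.81 to 7.90 in untreated and 7.86 to 8.15 in treated wild type, a difference of 0.13 (adjusted p = 0.24). The mean of both probe sets gave -0.36 for the drug, under the fold threshold, so the call rests on the brighter set.

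Slc30a7 encodes ZnT7, which moves zinc into the Golgi. It read 9.25, 9.02 and 9.17 in untreated wild type, 8.17, 8.43 and 8.42 in treated wild type, 9.24, 9.06 and 9.20 in PPARα-null and 8.68, 8.57 and 8.63 in Clk/Clk (probe set 1435717_at). PPARα-null overlapped the untreated group, treated wild type was lowest, and Clk/Clk lay between them without overlap. Slc30a7 fell by 0.81 ± 0.09 with the drug (adjusted p = 2.6e-05) and was higher by 0.83 ± 0.09 in PPARα-null than in treated wild type (adjusted p = 4.2e-05). For Clk/Clk the difference was 0.29 ± 0.09 (adjusted p = 0.037), 1.22-fold and not called. The dimmer probe set (1450697_at) differed: its means were 7.82, 7.50, 7.33 and 7.01 in the same order of groups. Its difference from treated wild type was -0.16 in PPARα-null (adjusted p = 0.40) and -0.49 in Clk/Clk (adjusted p = 0.025), opposite in sign to those of the brighter set. With the mean of both sets the drug difference was -0.57 and the PPARα-null difference 0.33, neither called.

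**Figure D3:**
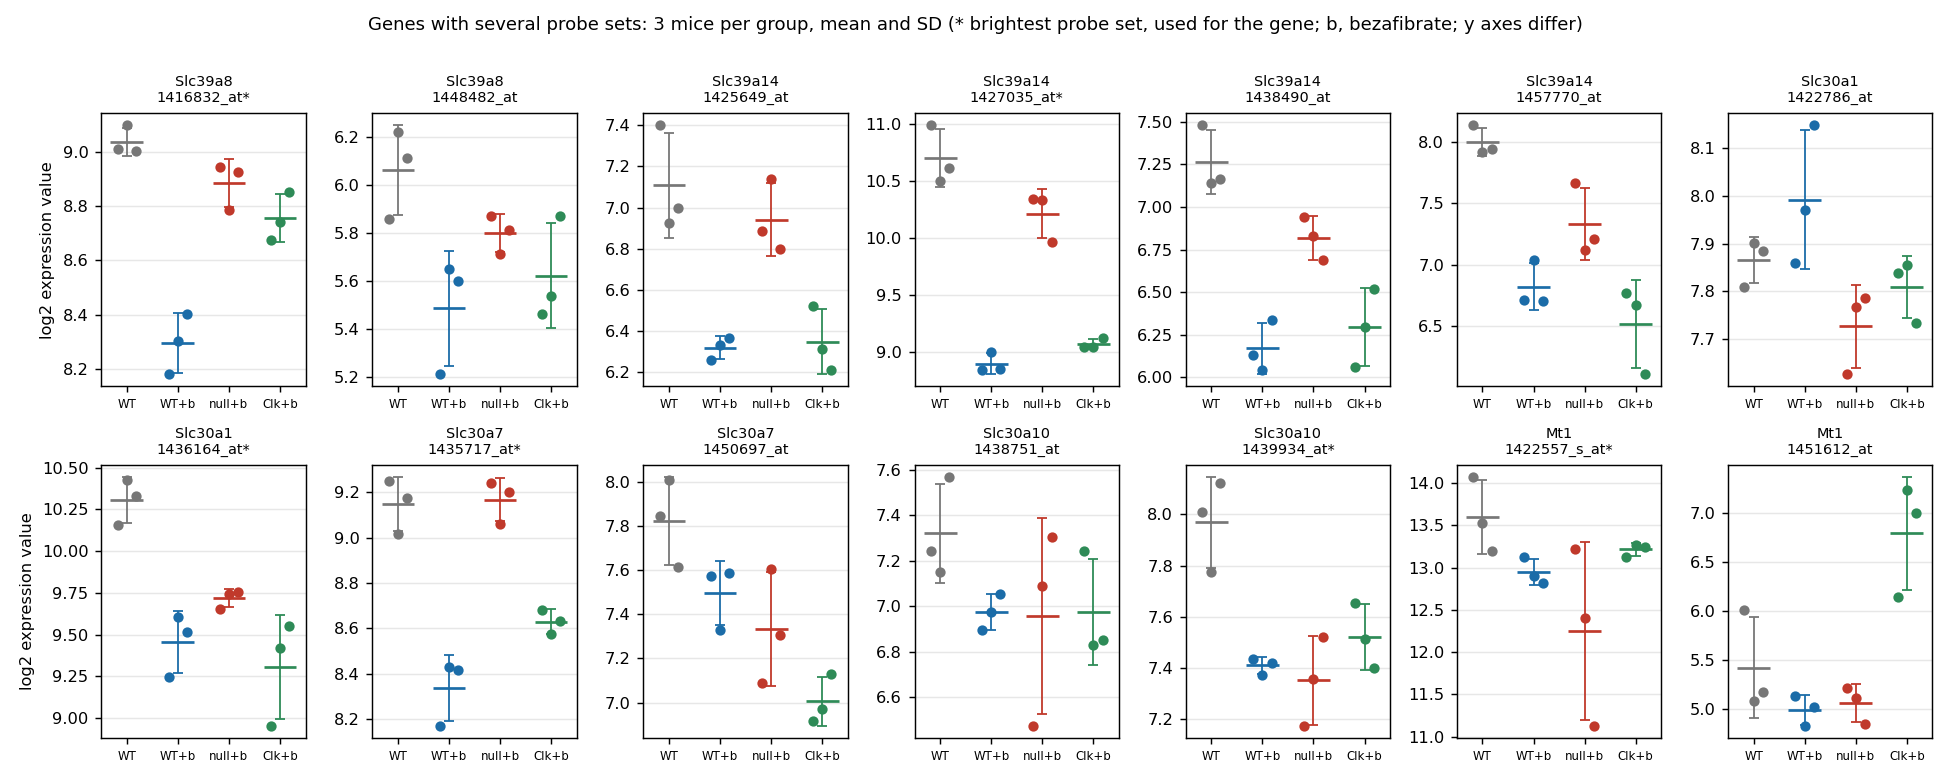
Log2 expression value (y axis, a scale of its own in each panel) of each probe set of the genes that have several, in 3 mice per group (x axis; WT, wild type; null, PPARα-null; Clk, Clk/Clk; +b, on bezafibrate), with mean and SD; an asterisk marks the brightest probe set. The 4 Slc39a14 sets were all lower in treated than in untreated wild type, the Slc30a1 sets differed from each other on the drug, and the dim Mt1 set was highest in Clk/Clk.

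Slc30a10 encodes a manganese exporter of hepatocytes. It read 8.01, 7.78 and 8.12 in untreated wild type, 7.44, 7.37 and 7.42 in treated wild type, 7.18, 7.36 and 7.52 in PPARα-null and 7.66, 7.51 and 7.40 in Clk/Clk (probe set 1439934_at). All treated groups overlapped each other, and all their values were below the untreated ones. Markers of stellate cells were read beside Slc30a1 and Slc30a10. The summed level of 6 markers was log2 12.7 to 12.8 in untreated liver and 12.2 to 12.4 in the treated groups. It is mostly that of Dcn, with means of 11.95 in untreated and 11.46 in treated wild type. With the drug in wild type 1 of 6 was called lower (Reln, -0.99), where 7.77% of all genes were. Means of Lrat, Col1a1, Col3a1 and Des were higher with the drug, and the median difference of the 6 was 0.13. The part of these markers in the results was not tested. The drug difference of Slc30a10 was -0.56 ± 0.11 (adjusted p = 0.0014), 1.47-fold and so just short of a call, and it passed at -0.65 without untreated mouse 2. PPARα-null on the drug was called lower than untreated wild type at -0.62 ± 0.11 (adjusted p = 0.0028), but neither mutant differed detectably from treated wild type (-0.06 ± 0.11, adjusted p = 0.72, and 0.11 ± 0.11, adjusted p = 0.48). The dimmer probe set (1438751_at) differed by -0.34 for the drug (adjusted p = 0.16).

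Mt1 and Mt2, the metallothioneins that liver makes, were among the brighter signals of the array, up to 14.07 for Mt1 where the highest value on any array was 15.003. Mt2 read 13.72, 13.23 and 12.98 in untreated wild type and 11.85, 11.91 and 12.06 in treated wild type (probe set 1428942_at). The groups did not overlap, with a difference of -1.37 ± 0.66 or 2.58-fold, which did not pass the test when all 12 arrays shared one spread (adjusted p = 0.11). PPARα-null livers read 12.41, 11.79 and 8.88, and the last value widens that shared spread. Without that mouse the adjusted p of the same drug difference was 3.1e-04, and in a fit of the wild-type groups alone it was 0.0012.

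Clk/Clk livers read 12.70, 13.10 and 12.80 for Mt2, above every treated wild-type and PPARα-null liver and overlapping the untreated ones. The difference from treated wild type was 0.93 ± 0.66 (adjusted p = 0.33), or an adjusted p of 0.0092 without PPARα-null mouse 3. Clk/Clk was called higher than PPARα-null at 1.84 ± 0.66 (adjusted p = 0.048). Over the alternatives the adjusted p ran from 0.0096 to 0.12, and the call was lost on leaving out any one of the 9 wild-type or Clk/Clk arrays. Without PPARα-null mouse 3 the difference was 0.77, and it was still called (adjusted p = 0.025). PPARα-null against treated wild type gave -0.92 ± 0.66 (adjusted p = 0.31), and 0.16 without mouse 3 (adjusted p = 0.65).

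Mt1 read 14.07, 13.52 and 13.20 in untreated wild type, 13.12, 12.90 and 12.82 in treated wild type, 13.22, 12.40 and 11.13 in PPARα-null and 13.13, 13.27 and 13.25 in Clk/Clk (probe set 1422557_s_at). As with Mt2, treated wild type lay below untreated wild type and below Clk/Clk without overlap, though by as little as 13.12 against 13.13 for the latter, and PPARα-null mouse 3 was the lowest of the 12. The drug difference was -0.65 ± 0.40 (adjusted p = 0.20), with an adjusted p of 0.040 without PPARα-null mouse 3 and 0.044 in the fit of the wild-type groups alone. The differences of PPARα-null and Clk/Clk from treated wild type were -0.70 ± 0.40 (adjusted p = 0.20) and 0.27 ± 0.40 (adjusted p = 0.67). The PPARα-null difference was -0.14 without mouse 3 (adjusted p = 0.73), and -1.18 and called without mouse 1 (adjusted p = 0.022). The Clk/Clk difference kept its size without PPARα-null mouse 3, at an adjusted p of 0.44.

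**Figure D4:**
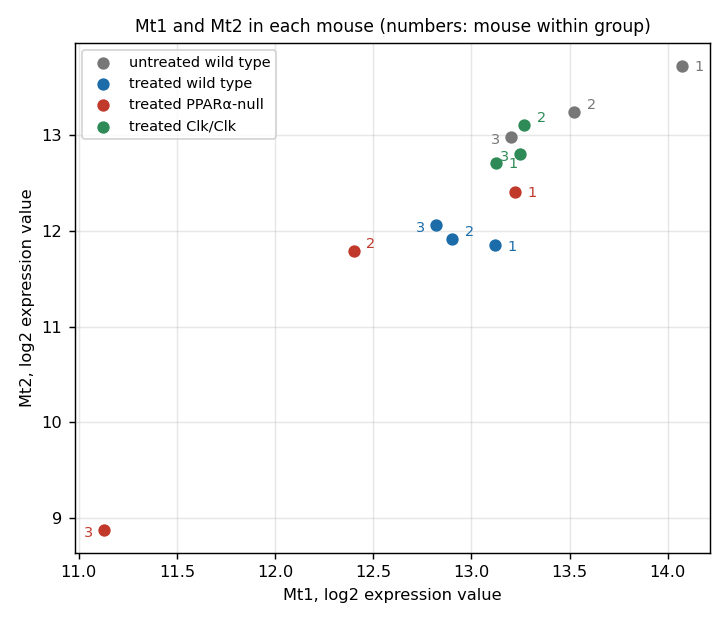
Log2 expression value of Mt2 (y axis) against that of Mt1 (x axis) in each of 12 livers, coloured by group and numbered by mouse within the group. Treated wild-type livers lie below untreated and Clk/Clk livers in Mt2, and PPARα-null mouse 3, at 11.13 and 8.88, lies apart from the other 11.

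Against untreated wild type, treated PPARα-null liver had 4 of the 8 genes called, all lower: Mt1 (-1.35), Mt2 (-2.29), Slc30a1 (-0.59) and Slc30a10 (-0.62), where 6.65% of all genes were called. The other probe sets of Slc30a1 (-0.14, adjusted p = 0.28), Slc30a10 (-0.36, adjusted p = 0.21) and Mt1 (-0.36, adjusted p = 0.40) were not called on their own. With the probe sets of a gene averaged, only Mt2 stayed called. These calls were near the threshold. Mt1 was lost without PPARα-null mouse 2 (-1.42) or 3 (-0.79) or untreated mouse 1 (-1.11) or 2 (-1.39). Mt2 was -1.21 and still called without PPARα-null mouse 3 (adjusted p = 0.0072), and was lost without any one of the untreated mice (-2.08 to -2.45). Slc30a1 was lost without PPARα-null mouse 1 (-0.56) or untreated mouse 2 (-0.53) or 3 (-0.57), and Slc30a10 without PPARα-null mouse 1 (-0.53) or untreated mouse 3 (-0.54). Clk/Clk liver against untreated wild type had 2 of 8 called, Slc30a1 (-0.998 ± 0.14, adjusted p = 1.7e-04) and Slc39a14, both lower, against 19.5% of all genes. For Slc30a1 the other probe set gave -0.056 (adjusted p = 0.63), and the mean of both sets gave -0.53, not called. Clk/Clk against PPARα-null had 2 of 8 called, Mt2 higher and Slc39a14 lower, against 15.2%.

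The second Mt1 probe set (1451612_at) gave another picture. It read 6.01, 5.08 and 5.17 in untreated wild type, 5.13, 4.83 and 5.02 in treated wild type and 5.22, 5.11 and 4.84 in PPARα-null, close to the filter level of 4.87 to 4.92. Clk/Clk livers read 6.14, 7.23 and 7.002, above all other livers. The difference from treated wild type was 1.80 ± 0.28 (adjusted p = 0.0011 over all probe sets), against 0.27 on the bright set. What the probes of each set match was not known.

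Genes with values most like those of Mt1, by the same measure and with the 9 genes left out, were Ank3 (0.360), Retreg1 (0.437), Slc25a51 (0.446), Arrdc2 (0.449) and Hspb8 (0.450). The root mean square of Mt1 about its own mean was 0.682, and the median of the measure over all genes was 0.720. Mt2 scored 0.560.

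Of 20 further zinc genes (the remaining Slc39 and Slc30 genes listed, Mt3, Mt4 and Mtf1), 17 passed the filter, and Slc39a12, Slc30a8 and Mt4 did not. With the drug in wild type 3 of 17 were called, near the 20.6% of all genes: Slc39a10 rose by 0.60 ± 0.14 (adjusted p = 0.0042), while Slc30a5, a transporter of the early secretory pathway, was lower (-0.60 ± 0.16, adjusted p = 0.0090), as was Slc39a2 (-0.59 ± 0.17, adjusted p = 0.013). All 3 stood at 1.51-fold, just over the threshold. The median drug difference of the 17 was -0.015. None of the 17 was called by limma in either mutant against treated wild type, where 13.4% and 9.13% of all genes were; at an unadjusted p under 0.05 there were 4 in PPARα-null and 4 in Clk/Clk. Mtf1, the zinc sensor, read 7.66, 7.71 and 7.58 in untreated and 7.08, 7.18 and 7.28 in treated wild type, a difference of -0.47 ± 0.11 (adjusted p = 0.0042), 1.38-fold and not called. Clk/Clk was lower than PPARα-null for Slc30a9 (-0.82) and Slc39a11 (-0.74), both called, 2 of 17 where 7.78% of all genes were called lower. Against untreated wild type, 1 of 17 was called in PPARα-null, higher, where 3.96% of all genes were. None was called in Clk/Clk against untreated, where 19.5% of all genes were.

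**Figure D5:**
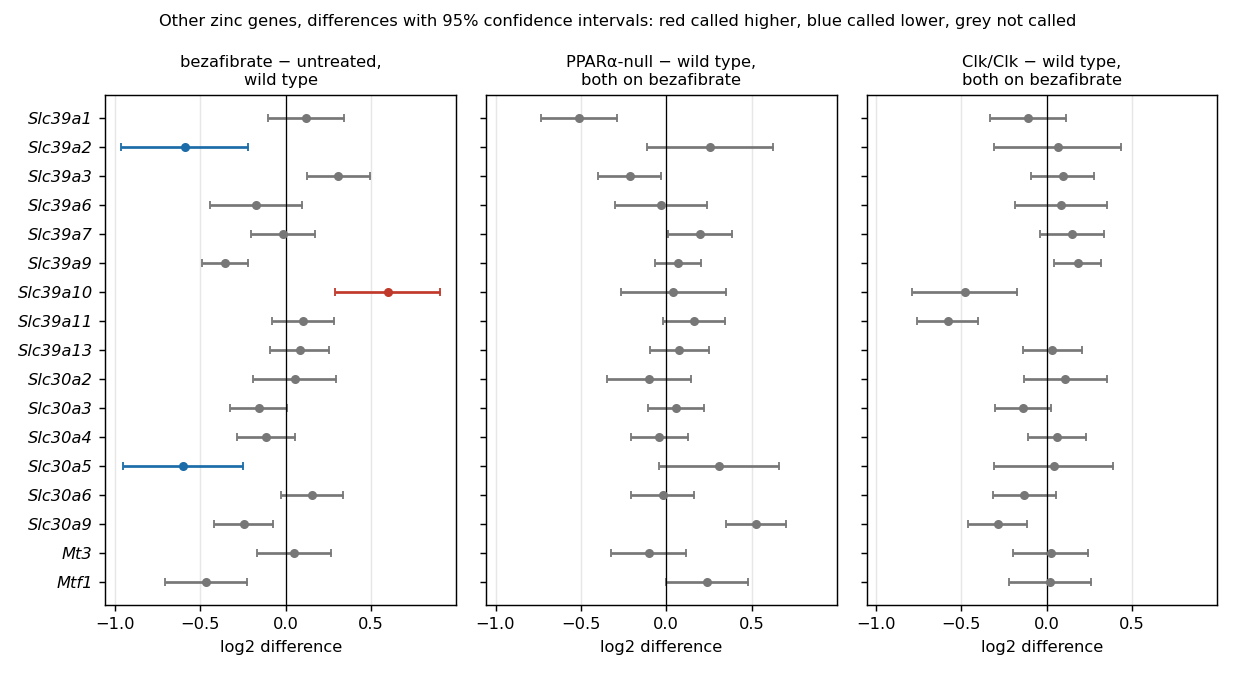
Log2 difference (x axis, same scale in each panel) of 17 further zinc genes (y axis) for bezafibrate against untreated in wild type and for each mutant against wild type on the drug, from 3 mice per group, with 95% confidence intervals. One gene is called higher (red, Slc39a10) and 2 lower (blue, Slc30a5 and Slc39a2) with the drug, and none in the mutants.

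Since liver metallothionein and Slc39a14 respond to glucocorticoids and interleukin-6, genes of those pathways were read beside them. Of 10 glucocorticoid genes, 9 were lower with the drug in wild type, 5 were higher in PPARα-null and 3 higher in Clk/Clk than in treated wild type. Over all genes 7.77% were called lower with the drug, 5.35% higher in PPARα-null and 2.64% higher in Clk/Clk. Tsc22d3 (GILZ, a classical receptor target) went from a mean of 11.45 to 9.23 with the drug (-2.22 ± 0.17, adjusted p = 1.3e-06) and read 10.72 in PPARα-null and 9.61 in Clk/Clk. Hsd11b1, which regenerates active glucocorticoid in liver, went from 13.59 to 11.17 (-2.42 ± 0.21), and Nr3c1, the receptor itself, from 10.41 to 9.77 (-0.64 ± 0.09). The gluconeogenic Pck1 fell by 4.66 ± 0.35, Zbtb16 fell by 1.98 ± 0.28 and the amino acid enzyme Tat fell by 1.64 ± 0.22.

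In PPARα-null mice 1 to 3, the mean of the 10 glucocorticoid genes relative to untreated wild type was -0.42, -0.52 and -0.95, lowest in the mouse with the lowest Mt1 and Mt2. Slc39a14, on its brightest probe set, was also lowest of the group in mouse 3 (9.96). The 18 interleukin-6 and acute phase genes read -0.45, -0.75 and -0.70 in mice 1 to 3, lowest in mouse 2. In untreated wild type, mouse 1 had the highest Mt1, Mt2 and Slc39a14, and it was also the highest for both lists, at 0.14 and 0.39. In Clk/Clk the glucocorticoid list read -1.40, -0.90 and -1.23, highest in mouse 2, which also had the highest Mt1 and Mt2. The interleukin-6 list there read -0.98, -1.55 and -1.51, highest in mouse 1, which had the lowest Mt1 and Mt2. In treated wild type the glucocorticoid list read -1.80, -1.64 and -1.71, lowest in mouse 1, which had the highest Mt1 but the lowest Mt2. The interleukin-6 list read -0.90, -1.40 and -1.73, highest in that mouse. PPARα-null livers had a higher mean of the glucocorticoid list than treated wild type but lower means of Mt1 and Mt2. Without PPARα-null mouse 3 the differences from treated wild type were -0.14 for Mt1 and 0.16 for Mt2. These are values of single mice or group means, and the part of either list in the metallothionein levels was not tested.

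Of the 18 interleukin-6 genes, 11 were lower with the drug in wild type, 5 were higher in PPARα-null than in treated wild type, and 1 was higher and 1 lower in Clk/Clk. The shares of all genes were the 7.77%, 5.35% and 2.64% given above, and 6.49% were called lower in Clk/Clk. Il6ra, the interleukin-6 receptor, went from 10.08 to 6.33 (-3.75 ± 0.22, adjusted p = 2.2e-07) and read 8.81 in PPARα-null and 7.68 in Clk/Clk, each called higher than treated wild type. Crp, an acute phase protein, went from 12.72 to 10.97 (-1.75 ± 0.11) and read 12.65 in PPARα-null and 11.03 in Clk/Clk, the order seen for Slc39a14. Stat3, the transducer of the receptor, was lower by -0.84 ± 0.12, the pentraxin Apcs by -1.62 ± 0.26, the metalloreductase Steap4 by -1.11 ± 0.21 and the fibrinogen chain Fgg by -0.67 ± 0.07.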

How the data were processed

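Each array has 1 log2 value per probe set, deposited by the authors and made with RMA, per the submitters' processing notes; which version and settings were used is not stated there. No scanner files were used. Probe sets were named from the platform annotation (34945 of 45101 with 1 symbol, 932 with several, 9160 with none, 64 controls). A probe set was kept where it reached the array's 40th percentile on at least 3 arrays, and the brightest kept probe set stood for a gene. Differences between the 4 group means were tested in R 4.3.3 by moderated linear models (limma 3.58.1, all 12 arrays in one fit). P-values were adjusted with Benjamini-Hochberg over 13598 genes, and the fit was tested on simulated data. Intervals are 95% confidence intervals. Named beside the 9 genes are those of each list with a call in the 3 main comparisons (up to 6 a list, smallest adjusted p), the 5 genes most like Slc39a5 and Mt1, and single genes (Mtf1, Slc30a9, Slc39a11, pancreas markers) singled out after their values were seen. The genes and lists were chosen with earlier results of these data known. The number of arrays, 3 per group, limits the precision. The labels speak of 3 mice a group; whether they shared cages or litters is not given.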

Additional observations from a re-analysis of the deposited data

How the results depend on the processing

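Each of 54 differences (9 genes in 6 comparisons) was recomputed under other filters, probe-set choices, normalization, weights and sample sets, 1182 values in all. Direction and call held in 1107; 44 lost a call, 19 gained one and 12 changed sign, all 12 of differences that were not called in the report. Counts of called genes among the 8 moved as follows. When the probe sets of a gene were averaged they were 2 for the drug, 1 for PPARα-null and 2 for Clk/Clk against treated wild type, and 1 for PPARα-null against untreated. Leaving out probe sets with the suffix _s_at, _x_at or _a_at, whose probes can match several transcripts, gave 2 for Clk/Clk against wild type. With robust and trend settings there were 2 for PPARα-null against untreated. Fitting only the groups compared gave 6 for the drug (Mt1 and Mt2 added), 2 for Clk/Clk against treated wild type, 2 for PPARα-null against untreated and 1 for Clk/Clk against PPARα-null, which was also 1 with no filter, with repeated quantile normalization and with robust settings. Leaving out 1 array at a time gave 4 to 6 for the drug, 2 to 3 for PPARα-null, 0 to 2 for Clk/Clk, 1 to 4 for PPARα-null against untreated, 2 for Clk/Clk against untreated and 1 to 3 for Clk/Clk against PPARα-null.

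Signs that changed, with probe sets averaged, were Slc30a1 in PPARα-null (-0.0014), Slc30a7 in Clk/Clk (-0.10) and against untreated in PPARα-null (-0.23), and Mt1 in Clk/Clk against untreated (0.49). Without suffixed sets, Mt1 was 0.064 in PPARα-null and 1.37 in Clk/Clk against untreated. Repeated quantile normalization gave 0.0054 for Slc30a10 in PPARα-null. With 1 array left out, Slc30a10 in PPARα-null ran from -0.14 to 0.030, Mt2 in PPARα-null from -1.61 to 0.16, Slc30a1 in Clk/Clk from -0.27 to 0.028 and Slc30a7 in PPARα-null against untreated from -0.045 to 0.074. The cause of these changes was not tested. Replicate numbers did not pair the mice: deviations of same-numbered mice correlated at -0.092 to 0.13. The replicate block left every count of called members as it was except 3, with Mt1 added, for Clk/Clk against PPARα-null, and moved the calls over all genes from 2798 to 2801 for the drug, from 1827 to 1824 for PPARα-null and from 1241 to 1253 for Clk/Clk.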

Other observations

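Iron and copper genes were read beside the zinc genes, since ZIP14 also carries iron and metallothionein also binds copper. Of 13 iron genes tested, Tfr2, the hepatocyte sensor of transferrin iron, was lower with the drug in wild-type liver, from a mean of 12.57 to 11.61 (-0.96 ± 0.08, adjusted p = 3.2e-06), and Tfrc, the transferrin receptor for uptake, was higher, from 9.01 to 9.64 (0.63 ± 0.22, adjusted p = 0.032). Over all genes 20.6% were called with the drug, 12.8% higher and 7.77% lower. No iron gene was called in either mutant against treated wild type, where 13.4% (PPARα-null) and 9.13% (Clk/Clk) of all genes were. Of 10 copper genes, the importer Slc31a1 was lower with the drug (-1.03 ± 0.07, adjusted p = 3.7e-07) and higher in PPARα-null than in treated wild type (0.63 ± 0.07, adjusted p = 2.8e-05).

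Of the 10 copper genes, 3 were called higher with the drug, where 12.8% of all genes were. Cox17, which delivers copper to cytochrome oxidase, rose by 0.78 ± 0.07 with the drug and was lower in PPARα-null (-0.59 ± 0.07, adjusted p = 5.4e-05). Atox1, which passes copper to the Golgi pumps, rose by 0.67 ± 0.08, and Commd1 rose by 0.59 ± 0.08; their differences in PPARα-null (-0.25 each) were not called. Ccs, another copper chaperone, differed by 0.24 ± 0.07 with the drug, 1.18-fold and not called. None of the 10 copper genes was called in Clk/Clk against treated wild type, where 9.13% of all genes were.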
